A study of Homo sapiens with 24 samples.

Results

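T-47D cells, a luminal and estrogen receptor-positive breast cancer cell line, were transiently depleted of P-Rex1 with the RNAi duplex called P-Rex1 RNAi #1 and then stimulated with heregulin (HRG), a growth factor that binds ErbB3 and ErbB4. The 3 arrays of these cells were compared with the 3 arrays of cells that received a non-target control duplex (NTC) and the same HRG treatment, and these 6 arrays were chosen by their sample titles out of 24. Both groups were serum starved after transfection and received HRG at 20 ng/ml for 6 h, and the labels describe the 3 arrays of each group as biological replicates. The other 18 arrays hold the same 2 transfections with vehicle (PBS), parental cells and a second duplex, P-Rex1 RNAi #2, each with vehicle or HRG. The RNAi was transient and used 1 duplex, and each array reads a whole culture, so fewer cells with a transcript cannot be told apart from less of it per cell.

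P-Rex1 is a guanine nucleotide exchange factor that loads the small GTPase Rac1 with GTP. Lipid signals of phosphoinositide 3-kinase and free G protein beta-gamma dimers both recruit and stimulate it, so several receptor classes can act through it. In luminal breast cancer cells it links ErbB receptors to Rac1, to rearrangement of actin and to motility. Because actin dynamics also set the activity of transcription factors such as SRF with its cofactors of the MRTF family, loss of a Rac activator can be read in the levels of mRNAs as well as in cell shape.

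Values are log2 expression values that the authors obtained with RMA, so a difference of 1 is a 2-fold difference. They serve to compare arrays for 1 probe set and not to rank genes against each other. The contrast was fitted with limma over 21042 probe sets with a gene symbol, of 28536 in the table. Calls required a Benjamini-Hochberg adjusted p below 0.05 together with more than a 1.5-fold difference, and "lower" or "higher" below refers to #1 against NTC. Array medians lay between 6.04 and 6.18 over all 24 arrays. Each #1 array with HRG (6.05, 6.04 and 6.05) had a lower median than each NTC array with HRG (6.12, 6.11 and 6.14). With array medians made equal, 27 probe sets were called lower instead of 24, and 14 were called higher in both fits. The part of this offset in the other results was not tested. One NTC array with HRG, replicate 3, stood apart from the other 2 on the second principal component, which held 10.9% of the variance. Calls that were lost without it are named below. All 11 luminal identity markers of T-47D measured, among them KRT8, KRT18, GATA3 and FOXA1, lay above a floor for dim signal, the lowest 25% quantile of any array (log2 4.27), in both groups. Their mean ran from 11.08 to 11.17 on the NTC arrays and from 11.23 to 11.24 on the #1 arrays. Of markers of other cell types, 12 of 15 fibroblast, 11 of 15 leukocyte and 10 of 14 endothelial genes also had NTC means above that floor, such as COL1A1 at 7.65 and 7.61 with #1, TYROBP at 7.09 and 6.92 and SOX18 at 7.79 and 7.49. The defining markers PTPRC (3.39 and 3.39), PECAM1 (4.02 and 4.0) and DCN (3.37 and 3.30) lay below it. The list means on the NTC and #1 arrays were 5.12 to 5.18 and 5.11 to 5.17 for fibroblast, 5.04 to 5.17 and 4.96 to 5.03 for leukocyte, and 5.16 to 5.22 and 5.09 to 5.13 for endothelial genes. The last 2 lists were thus slightly lower on every #1 array, and their part in the results was not tested. None of the 15 leukocyte or 14 endothelial markers was called, and of 15 fibroblast markers LUM was called higher.

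The targeted transcript was reduced by #1 on every array. PREX1 read 9.53, 9.52 and 9.30 on the NTC arrays and 8.60, 8.45 and 8.55 on the #1 arrays, so the groups did not overlap. The difference was -0.92 (standard error 0.07, adjusted p = 3.66e-07, limma), a 1.89-fold reduction. Without HRG the same duplex gave a difference of -1.43 (standard error 0.07), and that contrast was the larger one by 0.51 (interaction, adjusted p = 0.0302). HRG itself lowered PREX1 in parental cells, by a difference of -1.05, and in NTC cells, by -0.97, so the NTC arrays with HRG started from a lower level than those without. Of 33 measured exchange factors for Rac and related GTPases, PREX1 alone was called. Among its relatives, DOCK10 (0.51) and VAV3 (0.37) were higher, and DOCK5 (-0.30) and TRIO (-0.29) lower, at an adjusted p under 0.05 but under 1.5-fold. These 4 are named because they are the others that passed the adjusted p, and the list median was 0.01.

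Across the transcriptome the response was small and held more falls than rises past the 1.5-fold threshold. In all, 38 probe sets were called, 24 lower (0.114% of those tested) and 14 higher (0.0665%), against a median difference of -0.005 over all probe sets. Of the 24, 4 fell more than 2-fold, and none of the 14 rose that far. Without the fold threshold, 280 probe sets (1.33%) were lower and 465 (2.21%) higher at an adjusted p under 0.05. The 3 values of one group lay wholly below or above those of the other for all 38 called probe sets. Over all probe sets that held for 2902 below (13.8%) and 3008 above (14.3%). An exact permutation test of 3 against 3 arrays cannot go below a two-sided p of 0.1, and each of the 38 gave that value. Between 18 and 42 probe sets were called lower, and between 7 and 23 higher, when 1 of the 6 arrays was left out. The lower count rose to 42 without #1 replicate 3. The higher count dropped to 7 without NTC replicate 3 and to 7 without #1 replicate 2, and rose to 23 without NTC replicate 2. Without NTC replicate 3, 8 falls and 7 rises lost the call. The falls were GLIPR1 (-0.88 in that fit), CDC20B (-0.80), LPCAT1 (-0.58), CAVIN1 (-0.57), MCAM (-0.54), SPNS2 (-0.54), CCN1 (-0.54) and SLC20A2 (-0.51), and the rises were DNAJB4 (0.59), GRAMD1C (0.57), LUM (0.54), CLSPN (0.49), DLG2 (0.49), CAB39L (0.44) and PLEKHS1 (0.38). In all 6 of these fits, 13 of the 24 and 5 of the 14 were still called. The Rank Products test named in the study's methods, at an unadjusted p under 0.005 and over 1.5-fold, also called each of the 24 and each of the 14. It ranked the values of the same 6 arrays, so this is no independent support for the calls.

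**Figure D1:**
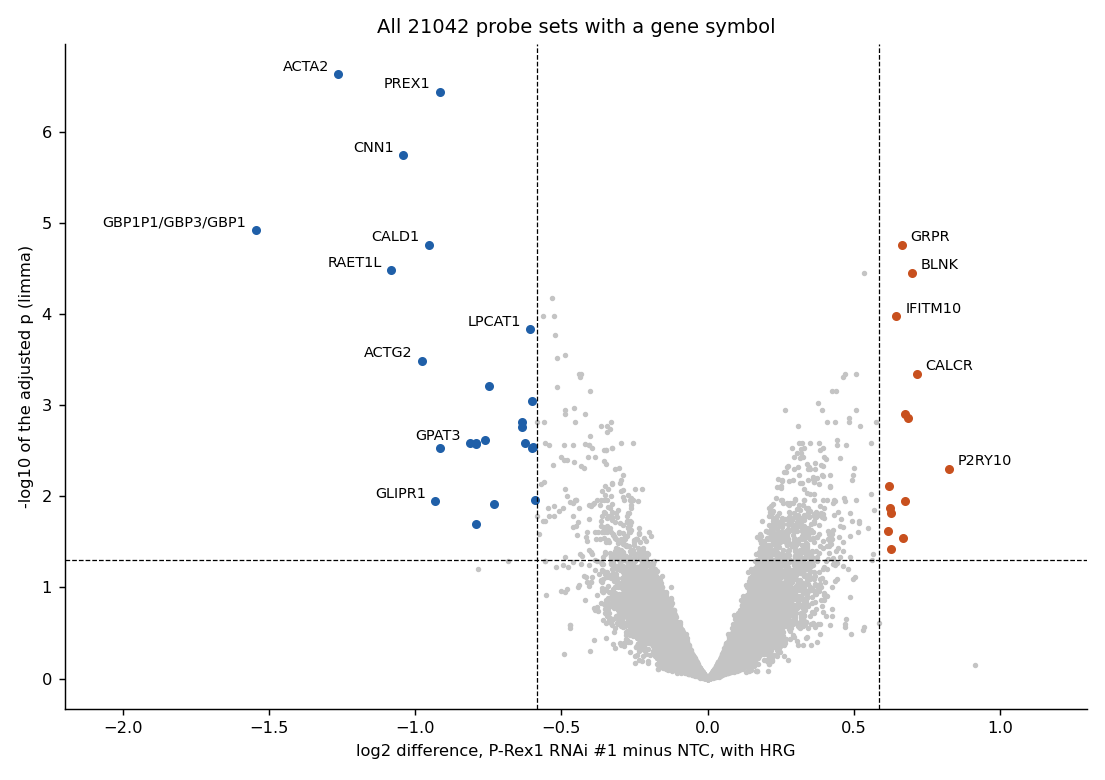
Log2 difference between P-Rex1 RNAi #1 and NTC with HRG (x axis) against -log10 of the limma adjusted p (y axis) for 21042 probe sets; dashed lines mark 1.5-fold and an adjusted p of 0.05, and blue and orange points are the 24 called lower and the 14 called higher. ACTA2, PREX1 and CNN1 have the smallest adjusted p, and the lower side reaches -1.55 while the higher side ends at 0.82 among called probe sets.

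Genes of the contractile apparatus were among the largest falls. Of 35 measured genes of a list of SRF/MRTF-linked actin and contractile genes, 4 fell past the threshold, none rose and 31 did not pass, with a list median of -0.12. Over all probe sets tested, 0.114% were called lower. The list was written with earlier results of these data known. ACTA2, the alpha-actin of smooth muscle, read 9.02, 9.20 and 9.25 on the NTC arrays and 7.92, 7.74 and 8.02 on the #1 arrays. That is a 2.40-fold reduction (log2 difference -1.26, standard error 0.10, adjusted p = 2.34e-07). CNN1 encodes calponin, which binds actin filaments and restrains myosin, and it read 7.63, 7.79 and 8.01 against 6.71, 6.75 and 6.84 with #1. Its fall was 2.06-fold (-1.04, standard error 0.09). CALD1, the gene of the actin-binding protein caldesmon, fell from 8.81, 8.65 and 8.86 to 7.63, 7.85 and 7.98. ACTG2, the gamma-actin of visceral smooth muscle, read 5.85, 6.36 and 6.40 on the NTC arrays and 5.25, 5.19 and 5.24 on the #1 arrays, a 1.97-fold reduction. In each of these 4 genes the lowest NTC array stayed above the highest #1 array, and all 4 were called in every fit that left out 1 array. Actin genes are close in sequence, so probe sets of ACTA2, ACTG2 and ACTA1 may take up signal from each other's transcripts.

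Another 5 genes of the list, named because they are the rest that reached an adjusted p under 0.05, were lower by less than 1.5-fold. They were MYL9 (-0.42), the regulatory light chain of myosin II, MYH9 (-0.37), its nonmuscle heavy chain, ACTA1 (-0.36), the skeletal alpha-actin, TPM1 (-0.29), a tropomyosin that coats actin filaments, and VCL (-0.28), the adhesion protein vinculin. At an adjusted p under 0.05, 9 of the 35 were thus lower, beside 1.33% of all probe sets, and none was higher, beside 2.21%. The difference between HRG and vehicle for ACTA2 was 1.18 in NTC cells and 0.31 in #1 cells, and for ACTG2 it was 1.19 and 0.16. For CNN1 it was 1.89 in NTC cells and 0.86 in #1 cells, and for CALD1 it was 1.79 and 0.78. The values with HRG on which these genes were called are part of these differences.

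**Figure D2:**
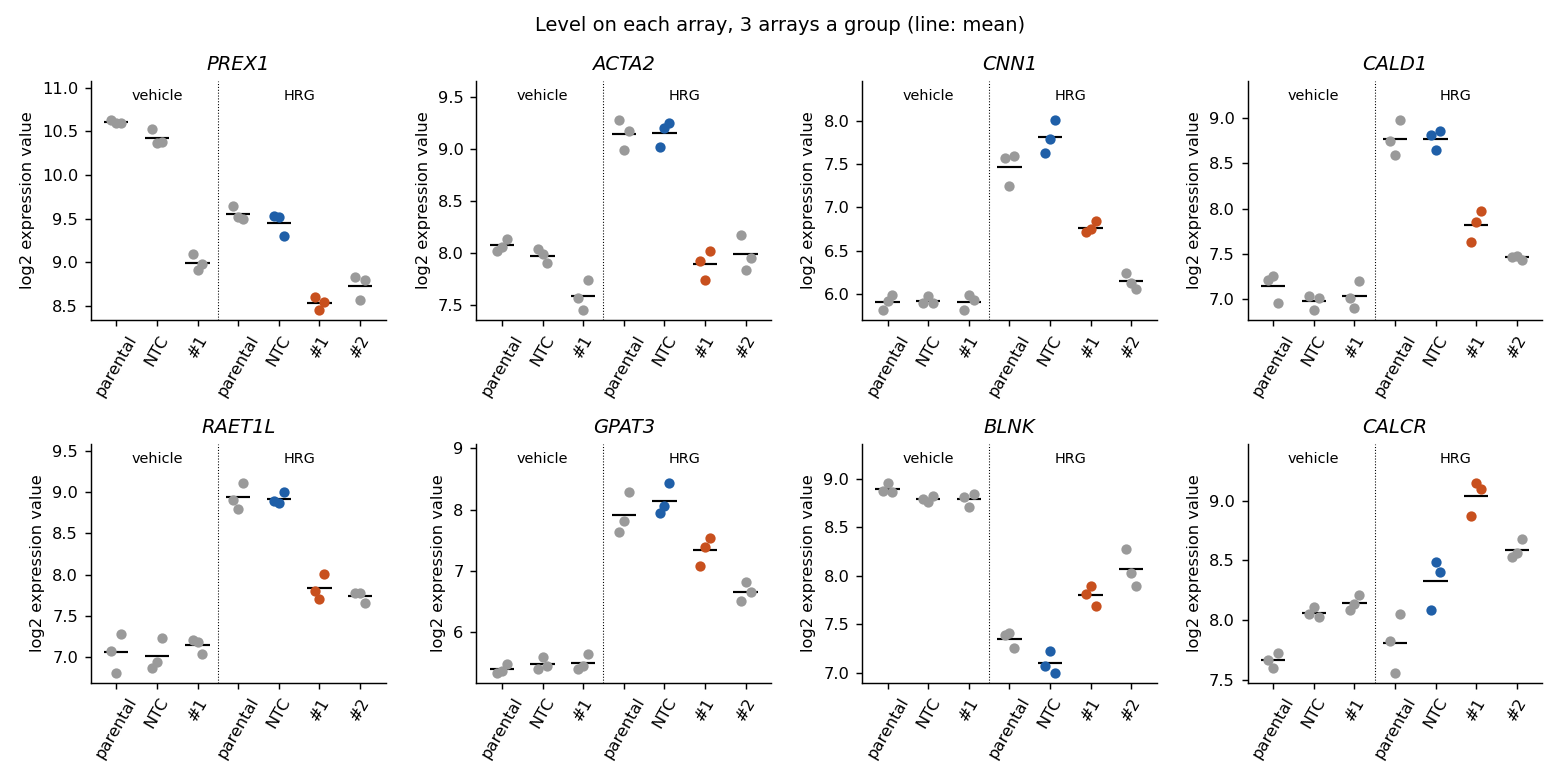
Log2 expression value (y axes) on each of 3 arrays a group for 8 genes, with vehicle to the left and HRG to the right of the dotted line; blue points are NTC and orange points #1 with HRG, gray points the other groups, and black lines group means. ACTA2, CNN1, CALD1, RAET1L and GPAT3 sit lower and BLNK and CALCR higher in #1 than in NTC cells with HRG, while PREX1 is lower both with and without HRG.

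Promoter sequence was available for 15 of the 22 genes called lower and for 11 of the 14 called higher, as windows of 300 bases that run from 250 before to 50 after an annotated start (RefSeq, GRCh38.p14). The strict CArG box that SRF binds has only A or T between CC and GG. Looser boxes with a G or C there, such as lie in the window of ACTA2, were not counted. Searched on both strands, the strict box occurred in 1.29% of the 35116 windows of the table and in 1 of the 23 windows of the genes called lower, that of ACTG2. It is shown because ACTG2 belongs to the contractile group, with the matches in capitals, from chr2:73892758-73893057 on the plus strand:
ACTG2: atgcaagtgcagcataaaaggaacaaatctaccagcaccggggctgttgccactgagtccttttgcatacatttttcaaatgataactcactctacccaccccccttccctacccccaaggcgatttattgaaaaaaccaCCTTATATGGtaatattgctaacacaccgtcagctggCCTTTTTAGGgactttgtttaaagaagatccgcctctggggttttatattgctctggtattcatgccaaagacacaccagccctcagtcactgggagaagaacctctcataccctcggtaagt
The second sequence is the window of RAET1L, a gene described further on, from chr6:150025483-150025782 on the minus strand. It holds an AP-1 site (TGANTCA), whose last bases overlap a TEAD site (GGAATG, here on the other strand), and a second TEAD site. All 3 are in capitals, and both motifs were searched on both strands:
RAET1L: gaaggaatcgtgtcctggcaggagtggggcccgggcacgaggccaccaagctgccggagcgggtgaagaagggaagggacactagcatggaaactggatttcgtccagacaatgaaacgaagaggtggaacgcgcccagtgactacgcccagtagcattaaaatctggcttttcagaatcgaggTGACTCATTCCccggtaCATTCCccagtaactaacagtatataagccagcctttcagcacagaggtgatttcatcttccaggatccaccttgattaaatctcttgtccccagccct
AP-1 sites occurred in 7.71% and TEAD sites in 14% of all windows, in 3 and 4 of the 23 windows of genes called lower and in 1 and 3 of the 23 windows of genes called higher. A gene can have several windows. All matches among the genes called higher were in DLG2, which has 9 windows. Among those called lower, CALD1, with 4 windows, held both AP-1 and TEAD sites. These matches are letters in a window and no evidence of binding.

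Of 39 focal adhesion and motility genes, CAVIN1 and MCAM fell, none rose and 37 were not called. At an adjusted p under 0.05, 8 were lower, beside 1.33% of all probe sets, and the median was -0.09. CAVIN1, a coat protein of caveolae, read 7.53, 7.16 and 7.83 on the NTC arrays and 6.65, 6.62 and 7.06 on the #1 arrays (-0.73, standard error 0.16, adjusted p = 0.0123). MCAM, an adhesion molecule of the immunoglobulin superfamily, read 7.61, 7.62 and 7.91 against 6.94, 6.96 and 7.33 with #1. The lowest NTC array was above the highest #1 array in both genes, but both lost the call without NTC replicate 3 and without #1 replicates 1 or 2. CCN1, a matricellular protein and target of YAP and TEAD, was the called member among 31 YAP/TEAD target genes. It fell by 0.60 on the log2 scale (standard error 0.11, adjusted p = 0.00287), from 8.98, 9.21 and 9.25 on the NTC arrays to 8.45, 8.47 and 8.74, and lost the call in 4 of the 6 fits that left out 1 array. TGFB2, a transforming growth factor, was the other member lower at an adjusted p under 0.05 (-0.56, standard error 0.13), and the list median was -0.05.

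Genes known from interferon and immune recognition included the largest fall of the 24. A probe set that the annotation assigns to GBP1P1, GBP3 and GBP1 read 9.07, 9.53 and 9.79 on the NTC arrays and 7.70, 7.98 and 8.07 on the #1 arrays, a 2.92-fold reduction (-1.55, standard error 0.16). It cannot be given to 1 of these 3 guanylate-binding protein genes. GBP2, a related interferon-inducible GTPase, fell on both of its probe sets, by 0.91 and by 0.79 on the log2 scale. The other 45 of 46 measured interferon-stimulated and guanylate-binding genes were not called, and the list median was -0.08. RAET1L, a cell surface ligand of the natural killer receptor NKG2D, read 8.90, 8.87 and 9.0 on the NTC arrays and 7.80, 7.70 and 8.01 on the #1 arrays. This 2.12-fold reduction (-1.08, standard error 0.12, adjusted p = 3.31e-05) was accompanied by a smaller difference in ULBP3 of the same family (-0.45, adjusted p = 0.0111). The family is close in sequence, so its probe sets may share signal. IL6R, the binding chain of the interleukin-6 receptor, read 9.06, 9.26 and 9.49 against 8.30, 8.46 and 8.76 with #1, and no pair of arrays from the 2 groups overlapped.

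The remaining falls were in enzymes, transporters and surface proteins. GLIPR1, a CAP superfamily protein, is the gene of this set that HRG raised most in NTC cells, by 4.99, and in #1 cells the rise was 4.43, a difference that did not pass (interaction -0.56, adjusted p = 0.251). With HRG it read 11.90, 11.82 and 12.02 on the NTC arrays and 10.87, 10.90 and 11.16 on the #1 arrays (-0.93, standard error 0.20, adjusted p = 0.0114), and its call was lost when NTC replicate 3 or #1 replicates 1 or 2 were left out. GPAT3, which starts glycerolipid synthesis by acylating glycerol-3-phosphate, read 7.95, 8.05 and 8.44 against 7.08, 7.39 and 7.53 with #1 (-0.81, standard error 0.14). LPCAT1, which reacylates lysophosphatidylcholine, fell by 0.61 on the log2 scale and SPNS2, an exporter of sphingosine-1-phosphate, by 0.60. Falls of the same order were seen in SCNN1G (-0.75), a subunit of the epithelial sodium channel, SLC20A2 (-0.62), a sodium-phosphate cotransporter, and SLC16A9 (-0.59), of the monocarboxylate transporter family. BDKRB2, the bradykinin B2 receptor, and CEACAM6, a glycolipid-anchored adhesion protein, gave -0.60 and -0.63. CDC20B (-0.79), a relative of the mitotic activator CDC20, and LOC151760 (-0.79), named here as the annotation names it, complete the 24.

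The 14 rises were smaller than the main falls and more scattered in function. P2RY10, a lysophospholipid receptor coupled to G proteins, read 5.69, 5.56 and 5.25 on the NTC arrays and 6.41, 6.41 and 6.16 on the #1 arrays, a 1.77-fold rise (0.82, standard error 0.16, adjusted p = 0.00496). CALCR, the calcitonin receptor, read 8.09, 8.49 and 8.40 against 8.87, 9.15 and 9.10 with #1, a rise of 0.72. GRPR, the receptor of gastrin-releasing peptide, rose from 9.97, 10.26 and 9.90 to 10.61, 10.82 and 10.70 (0.66, standard error 0.07), which gave it the smallest adjusted p of the rises, 1.74e-05. BLNK, an adaptor first known from B cell receptor signaling, read 7.07, 7.23 and 7.0 against 7.81, 7.90 and 7.69 with #1. In all 4 genes the highest NTC array was below the lowest #1 array, and all 4 kept the call in each fit that left out 1 array. ST8SIA6, a sialyltransferase, rose by 0.68 and was the fifth gene that did so. The other 9 each lost the call in at least 1 of those fits. They were PRG4 (0.69), the lubricant lubricin, CLSPN (0.68), the replication checkpoint adaptor claspin, DNAJB4 (0.67), a cochaperone of Hsp70, and IFITM10 (0.65), of the interferon-induced transmembrane family. CAB39L (0.63), a scaffold of the kinase LKB1, PLEKHS1 (0.63), a protein with a pleckstrin homology domain, DLG2 (0.62), a membrane scaffold, LUM (0.62), the matrix proteoglycan lumican, and GRAMD1C (0.62), a sterol transfer protein, follow. CLSPN has a second probe set, at a difference of 0.36 and an adjusted p of 0.0815.

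The 38 probe sets were called on the values with HRG, and most of them differed less without it. In vehicle-treated cells #1 gave 9 falls (0.0428% of those tested) and no rise (0.0%) by the same rule, with 1468 probe sets lower and 1144 higher at an unadjusted p under 0.05 (limma). Of the 24 probe sets lower with HRG, 3 were also called lower without it, namely PREX1, CDC20B (-1.26) and CEACAM6 (-0.74). None of the 14 was called higher without HRG. The median difference without HRG was -0.09 for the 24 and 0.01 for the 14. The test of the difference itself, the interaction of silencing and HRG, called 20 probe sets lower (0.095%) and 22 higher (0.105%) over the whole table. With the replicate number as a block the sum of both, 42, became 105, and it became 14 without NTC replicate 3, 14 without #1 replicate 2 and 83 without NTC replicate 2. At an adjusted p under 0.05 alone the interaction gave 66 lower (0.314%) and 69 higher (0.328%), among which were 12 of the 24 and 4 of the 14. The 24 and the 14 were called on the difference with HRG, a term of the interaction, so these counts are no independent evidence. RAET1L differed by 0.13 without HRG against -1.08 with it (interaction -1.21, adjusted p = 0.0028). For CNN1 the values were -0.01 and -1.04 (interaction -1.03, adjusted p = 0.00196), and for CALD1 they were 0.06 and -0.95 (-1.02, adjusted p = 0.0028). Among the rises, BLNK differed by -0.01 without HRG and by 0.70 with it (0.71, adjusted p = 0.00858), and GRPR by 0.02 and 0.66 (0.65, adjusted p = 0.00735).

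**Figure D3:**
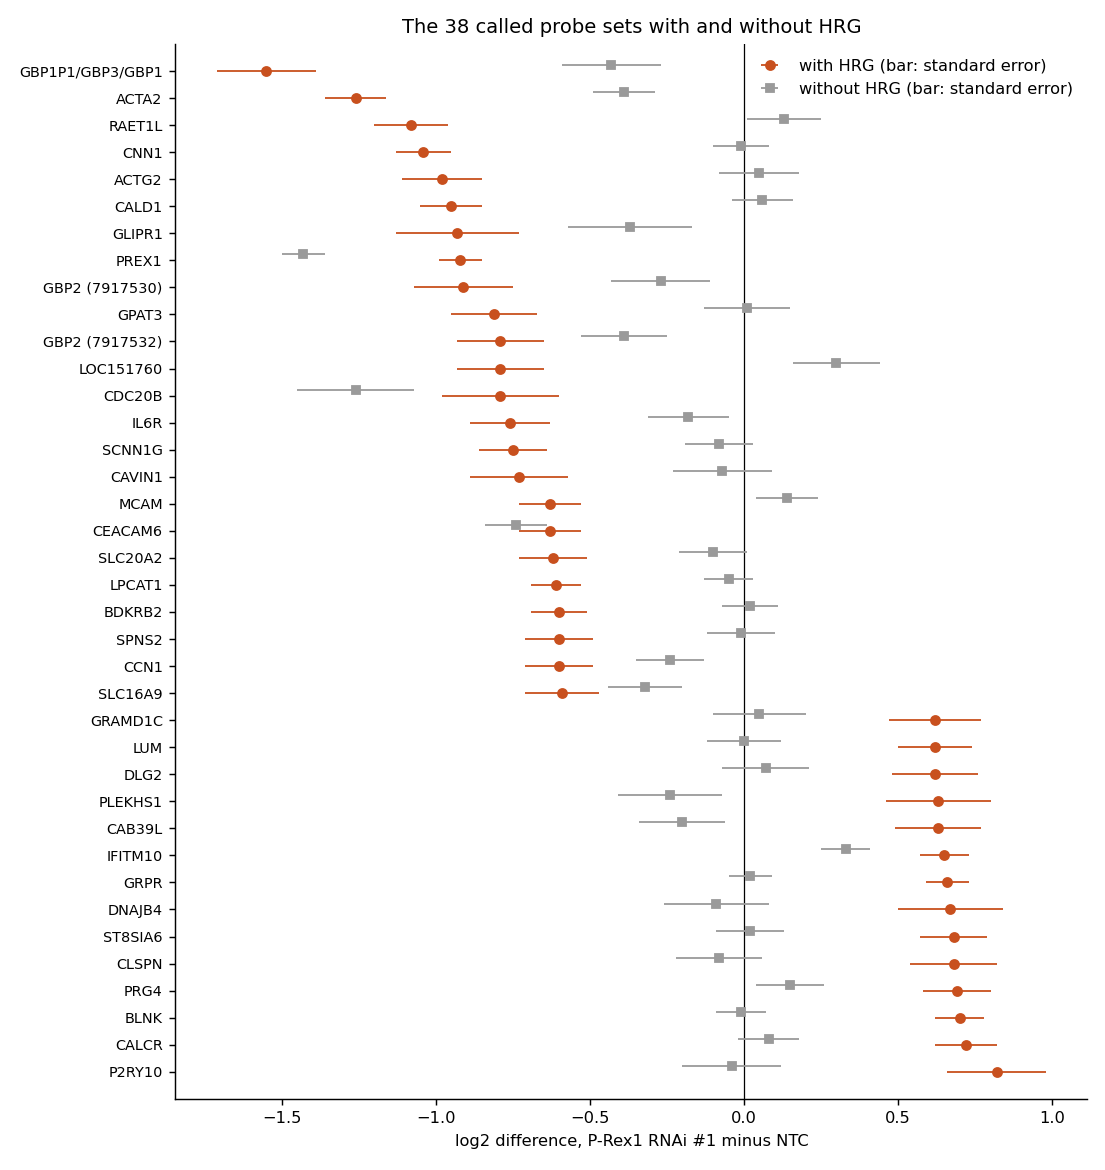
Log2 difference of P-Rex1 RNAi #1 from NTC (x axis) for the 38 called probe sets, with HRG (orange circles) and without HRG (gray squares), with limma standard errors as bars; probe set numbers mark the 2 entries of GBP2. The probe sets were called on the values with HRG, and without HRG those of PREX1, CDC20B and CEACAM6 were called, while others off 0, such as the GBP1P1/GBP3/GBP1 set (-0.43), ACTA2 (-0.39) and IFITM10 (0.33), were not.

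The called genes were then set beside the response to HRG in parental cells. The parental arrays did not enter the difference between #1 and NTC, but they shared the estimate of its spread. HRG raised 601 probe sets (2.86%) and lowered 507 (2.41%) there by the same rule. Of the 24 lower with #1, 21 were among the raised ones and PREX1 was among the lowered ones. CDC20B and CEACAM6 were in neither class. Of the 14 higher with #1, 7 were among the lowered ones, and LUM and PRG4 were among the raised ones. Seen from the classes, 108 of the 601 raised probe sets (18.0%) were lower with #1 at an adjusted p under 0.05 and 6 (0.998%) were higher. For the 507 lowered ones the counts were 7 (1.38%) lower and 83 (16.4%) higher. The median difference was -0.11 in the raised class, 0.17 in the lowered class and -0.01 in the 19934 probe sets of neither. Without NTC replicate 3 those of the raised and lowered classes were -0.10 and 0.11, with 16 of the raised called lower and 3 of the lowered called higher. Without HRG the same classes had medians of -0.02 and -0.09.

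**Figure D4:**
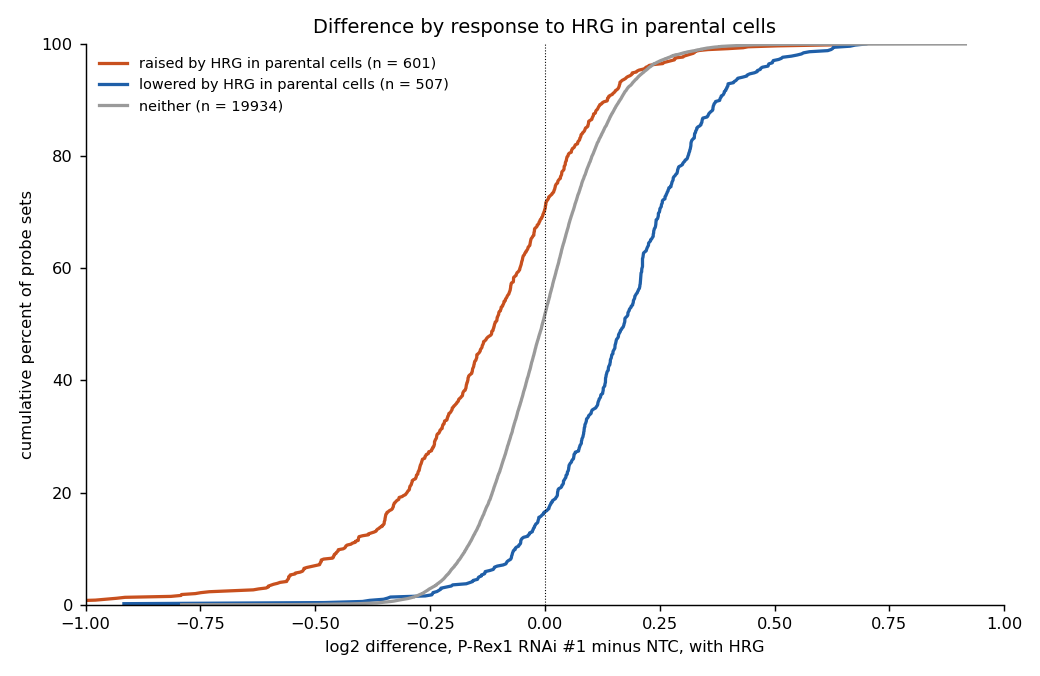
Cumulative percent of probe sets (y axis) by log2 difference between P-Rex1 RNAi #1 and NTC with HRG (x axis, drawn from -1 to 1) for probe sets raised, lowered or neither by HRG in parental cells. The curve of the raised class lies mostly to the left of the curve of the neither class, and the curve of the lowered class mostly to its right, with medians of -0.11, -0.01 and 0.17.

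Proteases and integrins gave no call against NTC. Against parental cells with HRG, MMP1 (-0.74, adjusted p = 0.000672), ITGB8 (-0.69) and the protease inhibitor SERPINA3 (-0.64, adjusted p = 0.0223) were called lower, and SERPINA3 differed from NTC by -0.38 (adjusted p = 0.165). None of 21 matrix metalloproteinase genes was called. MMP10, the protease stromelysin 2, read 6.64, 6.64 and 6.92 on the NTC arrays and 5.68, 5.81 and 6.67 on the #1 arrays. The third #1 array overlapped the NTC arrays, and the difference of -0.68 (standard error 0.19) had an adjusted p of 0.0512. MMP1, the interstitial collagenase, read 5.86, 6.14 and 5.63 against 5.14, 5.35 and 5.60 with #1, a difference of -0.51 at an adjusted p of 0.0145 and so under 1.5-fold, and it was called without NTC replicate 3 (-0.63). With #2 the differences from NTC were larger, -2.12 for MMP10 and -1.71 for MMP1, and both were called lower. A direct test of #2 against #1 gave -1.43 and -1.20. CTSV, the lysosomal cathepsin V, was lower by a difference of -0.49 on the same terms, one of 2 lower at an adjusted p under 0.05 among 42 other proteases and inhibitors. Of 21 integrin subunits none was called, and ITGA2 (-0.53, adjusted p = 0.00456) and ITGB8 (-0.49, adjusted p = 0.00275) were lower under 1.5-fold. ITGA2, the collagen-binding alpha-2 chain, read 11.23, 11.29 and 11.41 on the NTC arrays and 10.63, 10.73 and 10.99 on the #1 arrays, with no overlap.

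Feedback genes of the ERK pathway gave no call. Of 23 measured, none passed the adjusted p in either direction, and their median was 0.02. DUSP6, a phosphatase of ERK, read 8.08, 8.46 and 8.69 on the NTC arrays and 8.46, 8.78 and 9.05 on the #1 arrays, which overlap, and SPRY4, a Sprouty inhibitor, differed by 0.40 (standard error 0.15, adjusted p = 0.137). DUSP6 also rose with the replicate number in parental cells (7.95, 8.47 and 8.75) and with #2 (8.24, 8.62 and 8.85), both with HRG. For DUSP6 and SPRY4 each #1 array read above the NTC array of the same number. The main fit used no pairing, so it took no account of this. Of 44 NF-kappa B and TNF genes none was called and 3 were lower at an adjusted p under 0.05, among them TNFAIP3 (-0.50), which restrains NF-kappa B, and the adhesion molecule ICAM1 (-0.45). HRG raised the last 2 by 1.41 and 1.07 in parental cells. Against parental cells with HRG both were called lower with #1, TNFAIP3 at -0.74 (limma, adjusted p = 9.62e-05) and ICAM1 at -0.73 (adjusted p = 0.00051).

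Estrogen receptor and luminal genes had no called member among 35. ESR1, the estrogen receptor, read 8.40, 8.62 and 8.28 on the NTC arrays and 9.03, 8.94 and 8.74 on the #1 arrays (0.47, adjusted p = 0.00272), with no overlap, a difference under 1.5-fold. PGR, the progesterone receptor (0.39), and XBP1 (0.17), a factor of the unfolded protein response and of luminal cells, were the others higher at an adjusted p under 0.05. TFF3, a secreted trefoil peptide, was lower (-0.40). HRG lowered ESR1 and PGR in parental cells, by differences of -0.98 and -0.79.

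Of 49 measured G1/S and DNA replication genes, CLSPN was called higher and 48 were not called. At an adjusted p under 0.05, 18 including CLSPN were higher, beside 2.21% of all probe sets, none was lower, 31 did not pass, and the median was 0.22. ORC1 (0.50), a subunit of the origin recognition complex, and the checkpoint kinase gene CHEK2 (0.50) were the next largest, named after their values were seen. The count of 18 was 3 without NTC replicate 3, 3 without #1 replicate 2, 4 without #1 replicate 1, 10 without NTC replicate 1 and 1 when the 6 arrays were fitted alone. The mean over the list ran from 8.70 to 8.88 on the NTC arrays and from 8.95 to 9.06 on the #1 arrays. Against parental cells with HRG, 15 of the 49 were higher and none lower, with a median of 0.23, and without HRG none passed in either direction. Of 42 mitotic genes none was called and 3 were higher at an adjusted p under 0.05, the kinesin KIF4A (0.40) with the largest difference, and the median was 0.17.

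**Figure D5:**
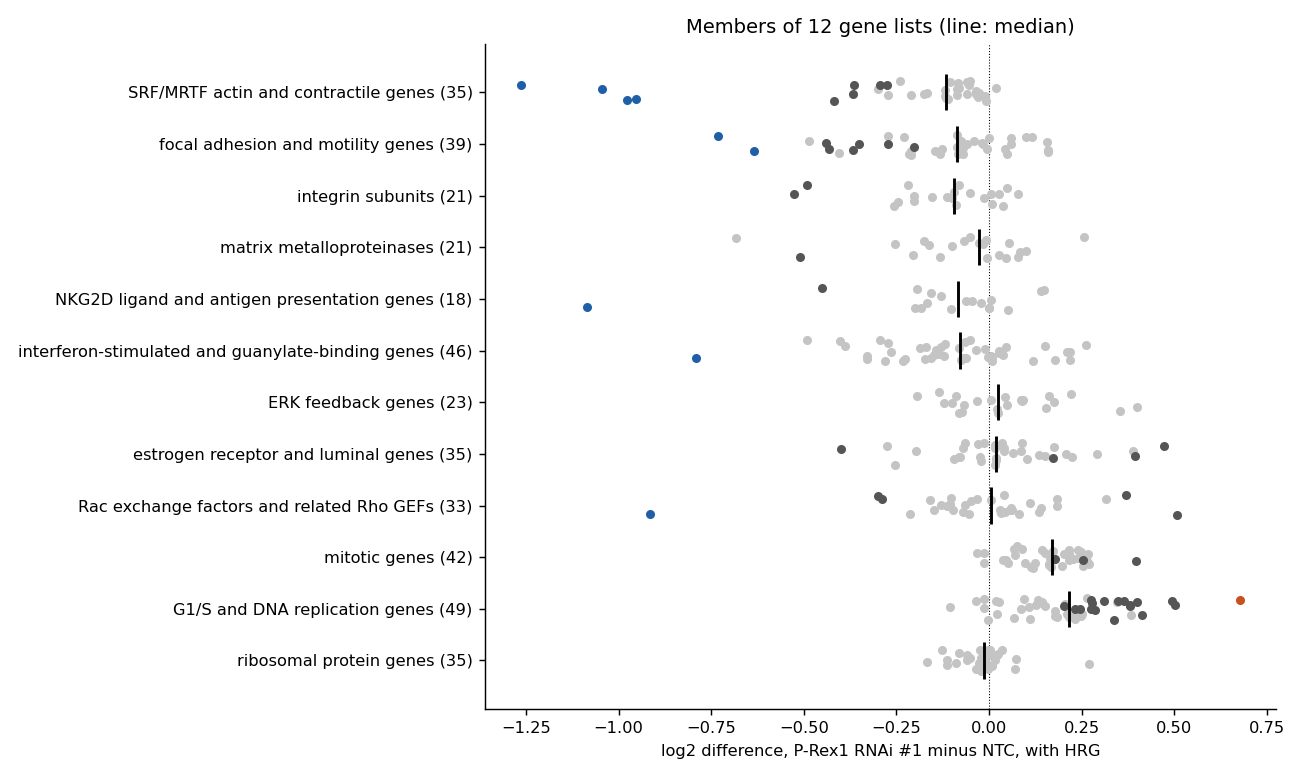
Log2 difference between P-Rex1 RNAi #1 and NTC with HRG (x axis) for each measured member of 12 gene lists, with the number of members in parentheses; blue and orange points are called lower and higher, dark gray points have an adjusted p under 0.05 under 1.5-fold, light gray points do not pass, and black lines are medians. The called members of the SRF/MRTF list lie between -0.95 and -1.26, while the G1/S list has its median at 0.22 and ribosomal protein genes have theirs at -0.01.

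Of the 41 gene lists described, 15 held a called member and 26 held none. Of 40 genes listed under chemokines, cytokines and their receptors, IL6R fell and BLNK and GRPR rose, although BLNK is an adaptor and not a receptor. Of 49 collagens, laminins and matrix proteins, CCN1 fell and LUM rose, and VCAN, the proteoglycan versican, was higher under 1.5-fold (0.57). Of 31 cholesterol and fatty acid synthesis genes, GPAT3 and LPCAT1 fell, both enzymes of glycerolipids rather than of sterols. SPNS2 fell among 34 prostaglandin, retinoic acid and lipid mediator genes, DNAJB4 rose among 19 heat shock genes, and CAB39L among 38 FOXO targets and growth-factor-repressed genes. The basal keratinocyte list of 29 genes had a median of -0.17 and no call, with ALOXE3, an epidermal lipoxygenase, at -0.56. Glycolysis and hypoxia genes, 30 measured, had 4 higher at an adjusted p under 0.05, such as the hexokinase HK2 (0.44) and the kinase PDK1 (0.37), and no call. With #2 against the same NTC arrays, 15 of these 30 were lower and 1 was higher at an adjusted p under 0.05. HK2 stood at -0.26 and PDK1 at -0.41 with #2, and a direct test of #2 against #1 gave -0.70 and -0.78. Among 39 ephrins, semaphorins and related genes, none was called, and MET, the receptor of hepatocyte growth factor, stood at -0.45. Lists of 13 RNA interference machinery genes and 35 ribosomal protein genes had no member past the adjusted p.

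Genes that the study names in its array results were a list selected on these same samples, so their direction is no independent evidence. Of 42 measured, 4 fell (GLIPR1, GPAT3, SLC16A9 and IL6R), 4 rose (CAB39L, PLEKHS1, DLG2 and BLNK) and 34 did not pass. The Src family kinase LYN (-0.54) and the Rab27 effector SYTL2 (-0.38) were lower at an adjusted p under 0.05, and the membrane scaffold ANK3 (0.51), the teneurin TENM2 (0.38) and the nuclear receptor NR1D2 (0.34) higher. MAP1B, a microtubule-associated protein, differed by -0.13 with #1 at an adjusted p of 0.618, and ANXA1, a phospholipid-binding annexin, by -0.13 at 0.448. With #2 their differences from NTC were -1.55 and -1.01.

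The #1 arrays were also set against parental cells with HRG, a control without transfection, which shares the 3 #1 arrays with the main contrast. That comparison called 30 lower (0.143%) and 9 higher (0.0428%), and without the fold threshold 239 lower (1.14%) and 427 higher (2.03%). The 2 controls themselves, NTC and parental cells with HRG, gave 0 calls in either direction (0.0% and 0.0%) and none at an adjusted p under 0.05 (limma), with 822 probe sets lower and 1208 higher at an unadjusted p under 0.05. Of the 24 falls, 13 were called against parental cells and 22 reached an adjusted p under 0.05, the exceptions being CDC20B (-0.54) and BDKRB2 (-0.24). Of the 14 rises, 5 were called against parental cells, namely CALCR (1.23), ST8SIA6 (0.91), IFITM10 (0.75), GRPR (0.71) and PRG4 (0.67), and BLNK (0.45) reached the adjusted p alone. The NTC mean lay above that of parental cells with HRG in 16 of the 24 falls and below it in 10 of the 14 rises, the side that enlarges the difference from #1.

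The second duplex, compared with the same 3 NTC arrays, called 197 probe sets lower (0.936%) and 52 higher (0.247%). With #2, ACTA2 differed from NTC by -1.17, RAET1L by -1.19, CNN1 by -1.67, GLIPR1 by -1.89 and GPAT3 by -1.49, beside -1.26, -1.08, -1.04, -0.93 and -0.81 with #1. A direct test of #2 against #1 with HRG called 82 lower (0.39%) and 5 higher (0.0238%). In it CNN1 (-0.62, adjusted p = 0.000344), GLIPR1 (-0.96, adjusted p = 0.00567) and GPAT3 (-0.68, adjusted p = 0.0055) were lower with #2, and PREX1 differed by 0.20 (adjusted p = 0.148). LUM read 7.14, 6.98 and 6.81 on the NTC arrays, 7.50, 7.61 and 7.68 with #1 and 6.22, 6.11 and 6.10 with #2, so it rose with one duplex and fell with the other. PRG4 did the same, with 5.28, 5.89 and 5.42 on the NTC arrays, 6.38, 6.16 and 6.11 with #1 and 5.09, 4.90 and 4.83 with #2. The direct test gave -1.45 for LUM and -1.28 for PRG4 (adjusted p = 2.63e-07 for each). CCN1 differed by -0.60 with #1 and by -0.17 with #2 (direct test 0.43, adjusted p = 0.0189). Among the rises with #1, CALCR differed from NTC by 0.26 with #2 and ST8SIA6 by 0.21, and neither passed the adjusted p. The direct test gave -0.45 for CALCR (adjusted p = 0.00966) and -0.47 for ST8SIA6 (adjusted p = 0.0113). P2RY10 (0.58), GRPR (0.47) and BLNK (0.97) were higher with #2 at an adjusted p under 0.05.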

How the data were processed

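Total RNA of T-47D cells was hybridized to 24 Affymetrix Human Gene 1.0 ST arrays, 3 in each of 8 groups taken from the sample titles. The deposited values are log2 expression values that the authors obtained by Robust Multichip Average (RMA), which corrects background and brings the arrays to a common distribution, and it compresses differences of dim probe sets. No version of the RMA software was found in the sources used here. With 3 arrays a group, the number of arrays limits the precision. The platform annotation gives 1 symbol to 19292 probe sets, several to 1750 and none here to 7494, with no genome build. Of the single-symbol entries, 19261 matched RefSeq by gene ID.

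All 24 arrays were fitted with a mean per group with the limma package (3.58.1, under R 4.3.3), with Benjamini-Hochberg adjustment over 21042 probe sets. The Rank Products test, named in the study's methods, was an alternative, at an unadjusted p under 0.005 and over 1.5-fold. Others changed the arrays, scaling, variance model, filter, control group and thresholds. Lists used the brightest single-symbol probe set of a gene. Named were PREX1, the 15 largest falls and rises called, up to 4 called members of each of 41 lists (otherwise the 2 largest differences) and genes that the study names. Members and lists were chosen with earlier results of these data known.

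Deviations of same-numbered NTC and #1 arrays with HRG from their group means correlated at 0.28, 0.119 and 0.436. Differently numbered arrays of these 2 groups ran from -0.375 to 0.214. Across all 8 groups, arrays numbered 1 correlated positively with each other, and so did arrays numbered 3. Arrays numbered 2 went down to -0.287 with each other. Arrays numbered 1 or 3 thus shared deviations by number, while a pairing of the arrays numbered 2 is uncertain. The main fit used no pairing, while Rank Products and the replicate block used the numbers. On simulated data for this contrast, the fit recovered 100 of 100 probe sets set to differ 2-fold and 100 of 100 set to differ 3-fold among 21042, with 0 false calls. The simulated noise was normal and independent between probe sets, with no shift of whole arrays and no array that stands apart. It therefore checks the code and does not give the error rate of the calls on the real arrays. Permutation tests used scipy 1.17.1 and plots matplotlib 3.10.9.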

Additional observations from a re-analysis of the deposited data

Results flagged for a closer look

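Several genes named above had a difference between #1 and NTC that was not the same with and without HRG, by the limma interaction at an adjusted p under 0.05. The interaction is the difference with HRG minus the difference without it, on the log2 scale. Most of these genes were called on the difference with HRG, which is a term of the interaction. Their interactions are therefore no independent evidence that the difference depends on HRG. It was -1.12 for the probe set of GBP1P1, GBP3 and GBP1, -0.87 for ACTA2, -1.21 for RAET1L, -1.03 for CNN1, -1.02 for ACTG2 and -1.02 for CALD1. It was -1.09 for LOC151760, -0.77 for MCAM, -0.66 for SCNN1G, -0.62 for BDKRB2 and -0.56 for LPCAT1. PREX1 stood at 0.51, since its reduction was larger without HRG. Among the rises, the values were 0.71 for BLNK, 0.66 for ST8SIA6, 0.65 for GRPR and 0.63 for CALCR. Genes under 1.5-fold with HRG gave -0.56 for ALOXE3, -0.50 for CTSV, -0.46 for DOCK5, -0.46 for TRIO, -0.37 for MYH9, 0.59 for KIF4A and 0.44 for ANK3.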

How the results depend on the processing

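The count called lower (24) was 280 without a fold threshold and 4 over 2-fold, and ran from 18 to 42 with 1 array left out. The count called higher (14) was 465 and 0 at those thresholds, 8 with only the 6 arrays compared, 7 without the 4 arrays that stand apart (NTC HRG 3 among them), 8 with parental and NTC cells together as the control, 9 with parental cells as the control, and from 7 to 23 with 1 array left out. Falls among genes raised by HRG (21) ran from 15 to 35 with 1 array left out. Rises among genes lowered by HRG (7) were 4 with only the 6 arrays, 4 with array weights, 3 without those 4 arrays, 4 with both controls together, and from 3 to 13 with 1 array left out. The 18 G1/S genes became 1 with only the 6 arrays, 11 after another quantile normalization, 4 without those 4 arrays, and from 3 to 20 with 1 array left out. The 9 calls without HRG became 15 with array weights. The 42 interaction calls became 105 with the replicate block, 88 with array weights, 9 without those 4 arrays, and from 14 to 83 with 1 array left out. The replicate block gave 26 lower and 14 higher in the main comparison and moved no other count named here by over 1.5 times. With the block and only the 6 arrays, an alternative chosen after seeing the data, the counts were 26 and 13. PREX1 ran from -0.99 to -0.87 with 1 array left out, and the 4 contractile genes were called under each of the alternatives run for them at the 1.5-fold threshold. Over the named genes and these alternatives, a call was lost in 127 and gained in 39 combinations, the side of the threshold was unchanged in 1218, and no direction changed. The causes were not tested.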
